A study of Mus musculus with 47 samples.

Results

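Acute phase proteins are plasma proteins that the liver makes in larger or smaller amounts during inflammation. The data cover 10 of their genes in mouse liver, taken as every gene probe whose gene name on the array is Saa1, Saa2, Saa3, Orm1, Orm2, Orm3, Lcn2, Hp, Hamp or Apcs. These 10 genes, of 37325 gene names on the array, had 12 probes, and all 12 passed the filter on dim probes. Orm3 and Lcn2 had 2 probes each, and the brighter one is used unless stated. The series asked how the gut microbiota and the pregnane X receptor (PXR, a nuclear receptor that senses xenobiotics, encoded by Nr1i2) act together on liver mRNA in each sex.

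Livers of 47 C57BL/6J mice were each hybridised to 1 single-colour array, in 8 groups. Pxr+/+ (WT) and Pxr-/- littermates came from Pxr+/- dams, and males and females of each genotype either drank tap water (CTRL) or received antibiotics (ATB), namely ampicillin at 1 g/L, neomycin at 1 g/L and vancomycin at 0.5 g/L, in that water for 2 weeks. The mice were 6 months old at treatment, per the study's methods, and were killed at ZT6, that is 6 h after lights on. Each group held 6 livers except the Pxr-/- CTRL males, with 5. The deletion is of the whole body, so liver and other tissues both lack PXR, and mice of a group shared 2 cages, with no cage given for a liver. Whole liver was used, so fewer cells of a type and less RNA per cell cannot be told apart.

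The 75th percentile of the median signal ran from 306 to 492.5 over the arrays, and 31087 to 34477 probes were well above background. In WT CTRL mice that percentile differed by sex, at 404.0 to 459.0 in females and 309.5 to 388.5 in males, without overlap. The part of this brightness in the sex differences below was not tested, but values under quantile normalization are given for some of them. The mean log2 signal of 10 hepatocyte markers lay between 16.11 and 16.85 in all livers. Xist (7.80 to 8.30 in females, 4.05 to 4.82 in males) and Ddx3y (3.95 to 4.58 in females, 6.94 to 7.84 in males) went with the labelled sex in all 47 livers. The single Nr1i2 probe read 10.37 to 11.89 in the Pxr-/- groups and 11.24 to 12.41 in the WT groups. These ranges overlap, and whether that probe lies in the deleted part of the gene was not tested, so it does not check the genotype labels. One liver, Pxr-/- CTRL female replicate 1, stood apart in the 10 genes, and values without it are given beside those that changed. It was picked on the values of these genes, so calls gained without it follow in part from that choice and do not stand as tests.

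Inflammatory signals reach hepatocytes mainly as IL-6, which acts through the JAK-STAT3 pathway, and as IL-1 and TNF, which act through NF-kB, with C/EBP factors bound at many of the responding promoters. Serum amyloid A (Saa1, Saa2) is the major acute phase protein of the mouse and rides on high-density lipoprotein, whereas Saa3 is made largely outside hepatocytes, for example in macrophages and fat. Orosomucoids (Orm1, Orm2, Orm3) bind lipophilic ligands, lipocalin 2 (Lcn2) captures bacterial siderophores, haptoglobin (Hp) binds free haemoglobin, hepcidin (Hamp) blocks iron export through ferroportin, and serum amyloid P component (Apcs) is the mouse's acute phase pentraxin.

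Promoter sequences of 8 of the 10 genes were in the RefSeq table of build GRCm38.p6. Orm1 and Hp had no entry. The 250 bases before the transcription start of 4 of them are shown, since Saa1 and Saa2 moved together across livers and Hamp moved less with the other members. Apcs is shown because it moved with the orosomucoids, at r = 0.87 with Orm2 but 0.61 without Pxr-/- CTRL female replicate 1. This was not particular to the orosomucoids, since Apcs with Lcn2 stood at 0.79 and 0.55. The Saa1 window is chr7:46742981-46743230, - strand, that of Saa2 chr7:46751583-46751832, + strand, that of Apcs chr1:172895055-172895304, - strand and that of Hamp chr7:30944030-30944279, - strand. Capitals mark matches, on either strand, to a STAT motif (TTCNNNGAA), an IL-6 response element (CTGGGAA) or a C/EBP motif (TTNNGNAAT).
Saa1: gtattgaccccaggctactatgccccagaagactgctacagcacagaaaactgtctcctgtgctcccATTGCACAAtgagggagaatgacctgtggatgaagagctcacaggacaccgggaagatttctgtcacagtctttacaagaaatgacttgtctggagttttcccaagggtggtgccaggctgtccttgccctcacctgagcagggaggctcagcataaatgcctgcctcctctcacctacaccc
Saa2: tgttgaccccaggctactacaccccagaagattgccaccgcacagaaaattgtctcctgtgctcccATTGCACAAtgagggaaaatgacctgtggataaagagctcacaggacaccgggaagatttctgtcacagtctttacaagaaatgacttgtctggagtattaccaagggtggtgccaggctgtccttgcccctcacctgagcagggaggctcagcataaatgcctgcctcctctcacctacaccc
Apcs: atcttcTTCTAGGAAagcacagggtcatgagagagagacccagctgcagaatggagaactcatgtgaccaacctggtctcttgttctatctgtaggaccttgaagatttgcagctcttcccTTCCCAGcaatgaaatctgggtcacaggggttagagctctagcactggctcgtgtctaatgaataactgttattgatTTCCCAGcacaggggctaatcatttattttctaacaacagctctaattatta
Hamp: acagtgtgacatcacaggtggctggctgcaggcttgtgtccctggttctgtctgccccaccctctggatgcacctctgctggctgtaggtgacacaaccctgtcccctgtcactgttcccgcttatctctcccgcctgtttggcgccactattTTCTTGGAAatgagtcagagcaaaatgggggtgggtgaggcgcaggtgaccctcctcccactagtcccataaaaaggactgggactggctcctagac
The Saa1 and Saa2 windows were identical at 238 of 251 aligned positions (94.8%), and those of Orm2 and Orm3 at 219 of 255 (85.9%). Saa1 and Saa2 carried the same C/EBP match, at -183 to -175 and at -184 to -176 from the start, and Orm2 had 1 at -109 to -101. That motif was in 11.5% of all 32851 promoters of the table, whose windows also include the first 50 transcribed bases. Hamp had a STAT match at -97 to -89 and Apcs 1 at -244 to -236, a motif in 8.3% of promoters. Apcs had the IL-6 response element at -129 to -123 and -52 to -46 and Orm3 had it at 10 to 16 after the start, against 11.1% of promoters. An NF-kB motif, in 1.63% of promoters, was in none of the 8 windows, which says only that its letters are not there. A match is a stretch of letters and does not show a bound site.

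The probes were 60-base oligonucleotides, with positions in build mm9. Those of Saa1 (chr7:53996070-53996129, - strand), Saa2 (chr7:54009535-54009594, + strand) and Saa3 (chr7:53967559-53967618, - strand) lie in 1 cluster, and those of Orm1 (chr4:63007395-63009038), Orm3 (chr4:63018910-63020393) and Orm2 (chr4:63024979-63025038), all on the + strand, in another. The Orm1 and Orm3 probes cover more genome than their 60 bases, 1644 and 1484 bases, and 46 of their 52 overlapping bases are identical. They are shown because 1 transcript could pair with both, which was not tested, and capitals mark the 6 bases that differ within the overlap.
Orm1: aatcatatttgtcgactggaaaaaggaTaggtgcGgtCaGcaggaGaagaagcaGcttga
Orm3: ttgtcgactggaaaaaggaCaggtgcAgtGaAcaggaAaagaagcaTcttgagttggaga
The Hamp probe (chr7:31727490-31727549, - strand) matched that of its paralog Hamp2 at 42 of 59 overlapping bases. Whether the Saa1 and Saa2 probes also pair with each other's transcripts was not tested here. The remaining probes were those of Lcn2 (chr2:32240199-32240258, - strand), Hp (chr8:112099045-112099104, - strand) and Apcs (chr1:174824959-174825018, - strand). Signals are compared between livers for 1 probe at a time, since levels of different probes are not comparable.

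Serum amyloid A mRNA varied widely between livers of the same group. The Saa1 log2 signal was 12.58, 13.18, 12.87, 13.41, 12.89 and 13.60 in WT CTRL females and 11.07, 12.64, 11.81, 12.07, 13.23 and 12.22 in WT CTRL males. In Pxr-/- CTRL females it was 18.16, 11.69, 12.64, 12.96, 12.61 and 12.84. Replicate 1 of that group was far above the others, at 48.8-fold their mean, while the other 5 lay within the range of the WT CTRL livers of both sexes. In Pxr-/- CTRL males, replicates 2 to 6 read 15.68, 11.55, 13.66, 12.46 and 12.09. In Pxr-/- ATB males the 6 livers read 16.58, 13.21, 13.83, 14.45, 13.71 and 14.83. In both of these groups the first value listed was the highest. WT ATB females (12.33 to 13.12), WT ATB males (11.99 to 13.51) and Pxr-/- ATB females (11.29 to 13.43) held no value above 13.51. Saa2 followed Saa1 liver by liver, from 11.40 in a WT CTRL male to 18.29 in the same Pxr-/- CTRL female.

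**Figure D1:**
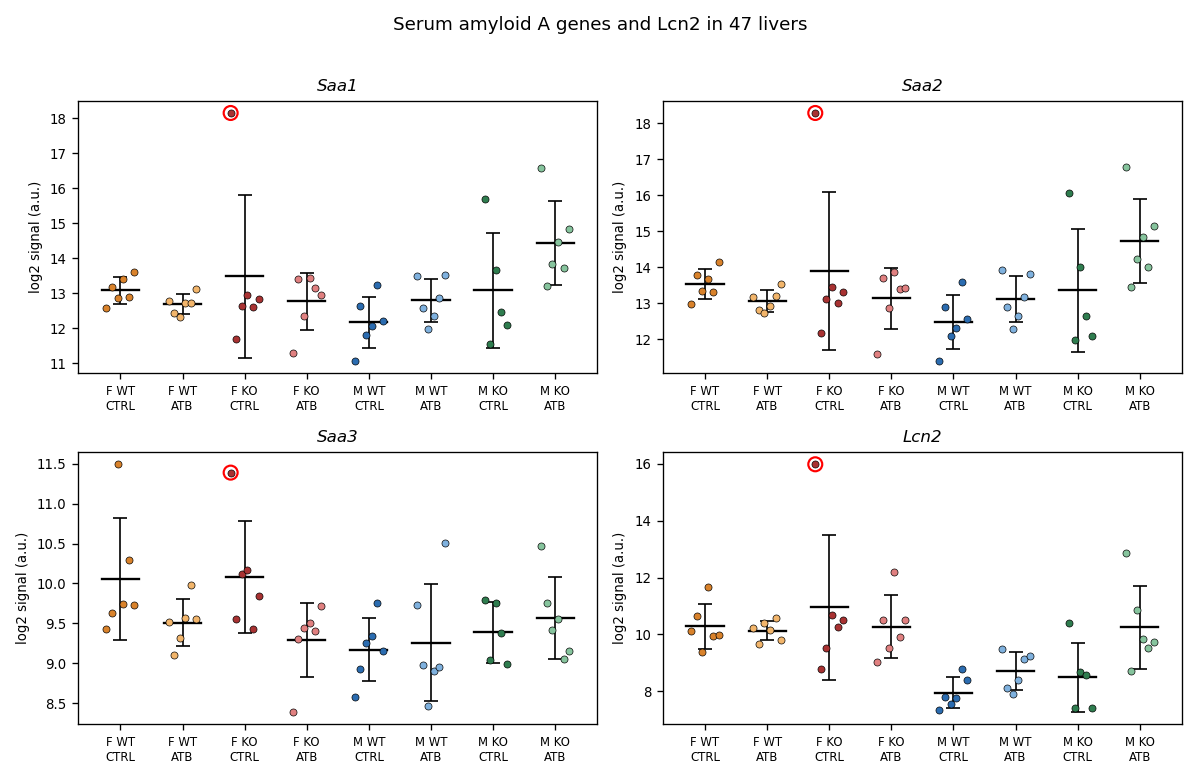
Log2 signal (arbitrary units, vertical axis) of Saa1, Saa2, Saa3 and Lcn2 in each of 47 livers by group (F female, M male, WT Pxr+/+, KO Pxr-/-, CTRL control, ATB antibiotics); points are livers, bars the mean and whiskers the SD, and a red ring marks Pxr-/- CTRL female replicate 1. That liver is the highest of all 47 for Saa1 (18.16), Saa2 (18.29) and Lcn2 (15.98), but not for Saa3 (11.39), for which a WT CTRL female reached 11.49.

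Lcn2 spread in the same way and read lower in most CTRL males than in CTRL females. It read 10.11, 10.66, 9.37, 11.66, 9.96 and 10.00 in WT CTRL females and 7.34, 7.79, 7.56, 7.78, 8.78 and 8.41 in WT CTRL males, and these groups did not overlap. In Pxr-/- CTRL females the values were 15.98, 8.80, 9.53, 10.67, 10.26 and 10.49, replicate 1 being 65.2-fold above the mean of the others. Lcn2 was also uneven among the other Pxr-/- livers. Pxr-/- CTRL males read 10.39, 7.42, 8.67, 8.58 and 7.41. Pxr-/- ATB males read 12.86, 8.70, 10.84, 9.84, 9.52 and 9.75 and Pxr-/- ATB females 9.04, 10.50, 9.52, 12.19, 9.91 and 10.49, and these groups overlapped. Saa3 moved less, from 8.39 to 11.49 over all 47 livers.

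Among the orosomucoids, Orm3 had the widest range. It read 10.56, 10.30, 9.04, 9.89, 10.60 and 10.53 in WT CTRL females and 6.60, 7.26, 7.38, 6.81, 7.86 and 8.05 in WT CTRL males, with every female above every male. Pxr-/- CTRL females read 13.96, 8.42, 9.27, 9.30, 9.69 and 9.04 and Pxr-/- CTRL males 7.90, 6.95, 7.25, 7.70 and 6.87. Orm1 ran from 15.28 to 16.39 and Orm2 from 13.61 to 15.10 in all livers but Pxr-/- CTRL female replicate 1, which read 17.74 and 17.07. Hp varied least of the 10 genes within groups, from 17.14 to 18.33 over all livers, the same liver being the highest. In that liver Alb, which encodes albumin, read 18.68. Whether signals near that level, such as those of Hp, are compressed was not tested.

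Hamp and Apcs were lower in CTRL males than in CTRL females. Hamp read 16.75, 16.90, 16.0003, 16.03, 17.06 and 16.65 in WT CTRL females and 15.44, 15.80, 15.76, 15.52, 15.51 and 15.53 in WT CTRL males. In Pxr-/- CTRL females it read 16.62, 15.88, 16.61, 16.26, 15.58 and 16.15, so that replicate 1 and replicate 3 were nearly equal. In this gene that liver lay among the others of all groups. Apcs read 11.74, 11.93, 11.30, 11.97, 11.55 and 11.72 in WT CTRL females and 10.20, 10.22, 10.25, 10.77, 10.85 and 10.34 in WT CTRL males. In Pxr-/- CTRL females Apcs was 13.36 in replicate 1 and 10.92 to 11.20 in the others.

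**Figure D2:**
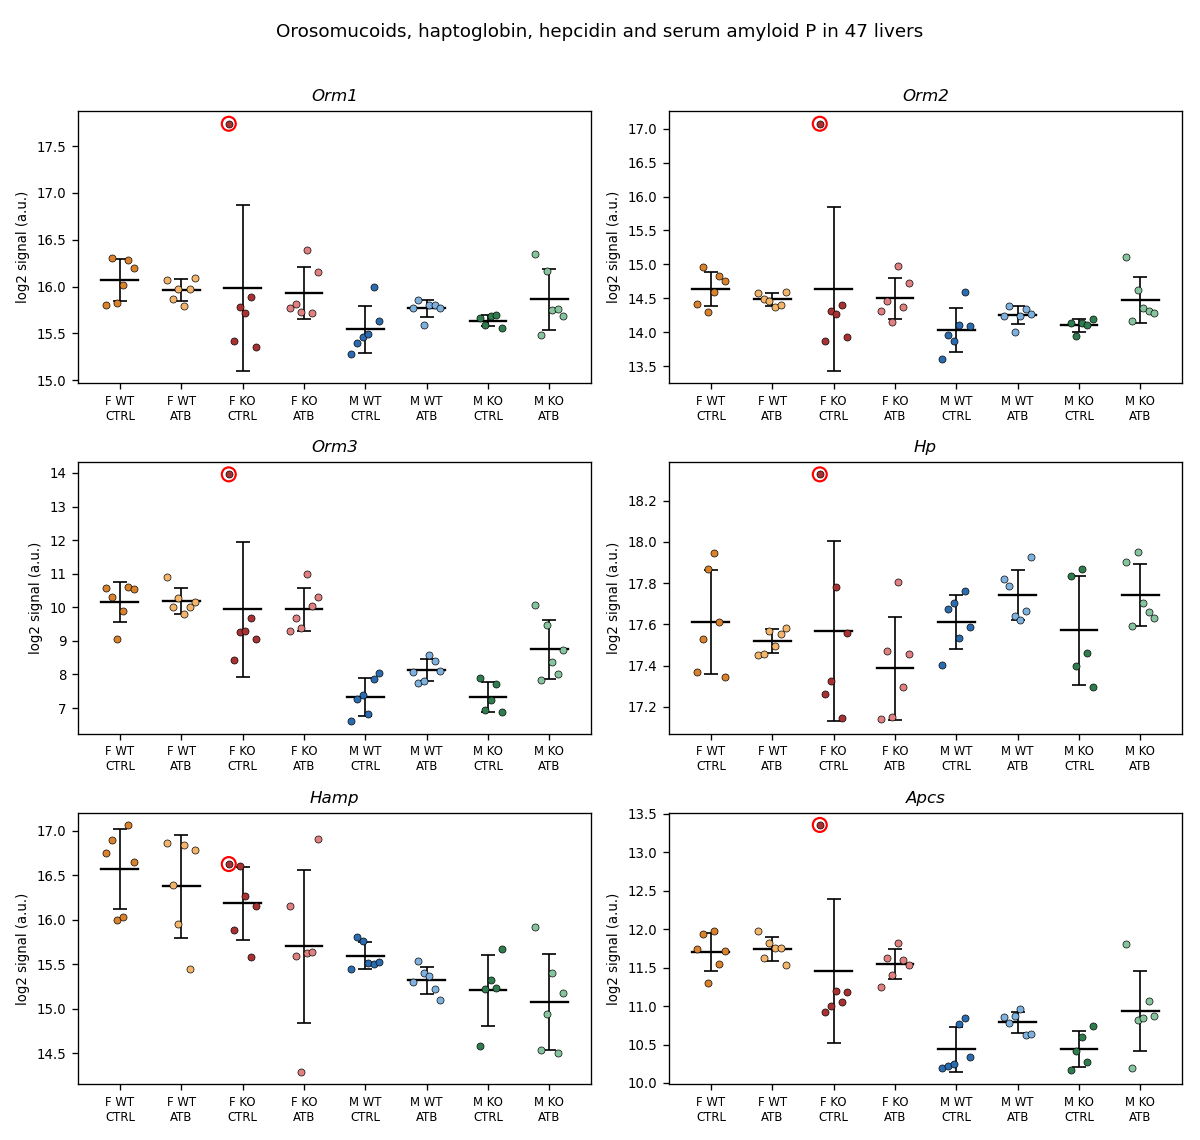
Log2 signal (arbitrary units, vertical axis; each panel has its own range) of Orm1, Orm2, Orm3, Hp, Hamp and Apcs in each of 47 livers by group, with the mean (bar) and SD (whisker); the red ring marks Pxr-/- CTRL female replicate 1. That liver is the highest of all for Orm1 (17.74), Orm2 (17.07), Orm3 (13.96), Hp (18.33) and Apcs (13.36) and lies among the others for Hamp (16.62).

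The order of the 8 group means had few steps larger than the spread. With all livers, for Saa1, Saa2, Saa3 and Hp no neighbouring groups in the order differed by more than their spread. For Orm3 the step from the lowest female group, Pxr-/- ATB (9.94 ± 0.64, SD, n = 6), to the highest male group, Pxr-/- ATB (8.75 ± 0.88, SD, n = 6) exceeded both SDs, as did the step of 0.79 from WT ATB males (8.12 ± 0.33, SD, n = 6) to Pxr-/- CTRL males (7.33 ± 0.45, SD, n = 5). For Lcn2 the only such step, 1.42, separated WT ATB females (10.14 ± 0.34, SD, n = 6) from WT ATB males (8.72 ± 0.65, SD, n = 6), and Pxr-/- ATB males (10.25 ± 1.45, SD, n = 6) stood among the females. All 4 female groups came before the 4 male groups for Orm1, Orm2, Orm3, Hamp and Apcs. Smaller steps past the spread separated WT ATB from Pxr-/- CTRL males for Orm1 (0.13), Orm2 (0.14) and Apcs (0.35), and WT CTRL from WT ATB males for Hamp (0.27).

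The order changed without Pxr-/- CTRL female replicate 1. All female groups then came first for Orm3, Hamp and Apcs only. The Pxr-/- CTRL females (n = 5) fell to the seventh place of 8 for Orm1, at 15.63 ± 0.23 (SD), below 3 male groups, and to the sixth for Orm2, at 14.16 ± 0.24 (SD), below 2. For Orm3 they became the lowest female group at 9.14 ± 0.47 (SD), 0.40 above the Pxr-/- ATB males, which is within the spread, and the step past the spread, 0.80, lay above them. The like held for Apcs, with a step of 0.47 between Pxr-/- ATB and Pxr-/- CTRL females. For Lcn2 the step past the spread was 1.23, from Pxr-/- CTRL females to WT ATB males. The Pxr-/- ATB males then stood past the spread above the next group for Saa1 (1.35) and for Saa2, and the step of Orm2 was gone.

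Sex was the comparison in which members changed. Each test below is limma's, with p adjusted by Benjamini-Hochberg over all 32979 probes tested, and a call needs an adjusted p of at most 0.05 and a fold change over 1.2. Differences are given as males minus females on the log2 signal scale, ± SE. In WT CTRL mice 6 of the 10 genes were higher in females, against 30% of the 21877 genes tested. Orm3 was 7.10-fold higher in females (-2.83 ± 0.50, adjusted p = 3.49e-05), Lcn2 5.08-fold (-2.35 ± 0.70, adjusted p = 0.00947) and Apcs 2.40-fold (-1.27 ± 0.24, adjusted p = 9.40e-05). Hamp was 1.96-fold higher (-0.97 ± 0.28, adjusted p = 0.00645), and these 4 genes did not overlap between the sexes, as was so with females higher for 15.9% of all genes. Saa3 (-0.88 ± 0.31, adjusted p = 0.0266) and Orm1 (-0.53 ± 0.21, adjusted p = 0.0483) also passed. The other 4 genes, Saa1, Saa2, Orm2 and Hp, did not. The median difference of the 10 genes was -0.94, beside -0.20 over all genes. Under quantile normalization, which removes that shift, Saa3 (-0.65, adjusted p = 0.156) and Orm1 (-0.38, adjusted p = 0.243) were no longer called.

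In Pxr-/- CTRL mice 4 genes were higher in females, beside 13.8% of all genes. These were Orm3 (6.12-fold, adjusted p = 0.000385), Lcn2 (5.49-fold, adjusted p = 0.0182), Apcs (2.02-fold, adjusted p = 0.00407) and Hamp (1.97-fold, adjusted p = 0.0168). Without Pxr-/- CTRL female replicate 1, Orm3, Apcs and Hamp were called, beside 14.6% of all genes. Lcn2 then differed by -1.45 ± 0.55 (adjusted p = 0.0642), Orm3 by -1.81 ± 0.34 (adjusted p = 0.000159), Apcs by -0.64 ± 0.17 (adjusted p = 0.00631) and Hamp by -0.89 ± 0.30 (adjusted p = 0.0376). The Saa1 difference turned from -0.40 to 0.54 without that liver, and neither value was called.

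In WT ATB mice Orm3 (4.19-fold higher in females, adjusted p = 0.00344), Hamp (2.08-fold, adjusted p = 0.00717) and Apcs (1.94-fold, adjusted p = 0.00494) were called, beside 9.06% of all genes. Lcn2 was not called (-1.42 ± 0.70, adjusted p = 0.207) although its groups did not overlap, which held with females higher for 4.39% of all genes. In Pxr-/- ATB mice 0 of the 10 genes were called higher in females by limma, beside 23.4% of all genes, while 6 of the 10 had an unadjusted p under 0.05 in one direction or the other, beside 41.1% of all genes. Hp was called higher in males (1.28-fold, 0.35 ± 0.14, adjusted p = 0.0454), beside 2.53% of all genes. Saa1 was 3.18-fold higher in males (1.67 ± 0.65, adjusted p = 0.0504) and Saa2 3.04-fold (1.60 ± 0.64, adjusted p = 0.0559), neither called. For both, 5 of 6 males lay above every female, and the share of all genes for which that held was not computed. Orm3 (-1.20 ± 0.50, adjusted p = 0.0658), Apcs (-0.61 ± 0.24, adjusted p = 0.0519) and Hamp (-0.62 ± 0.28, adjusted p = 0.0832) lay on the female side. Whether the sex difference itself differed between genotypes under antibiotics was not tested.

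**Figure D3:**
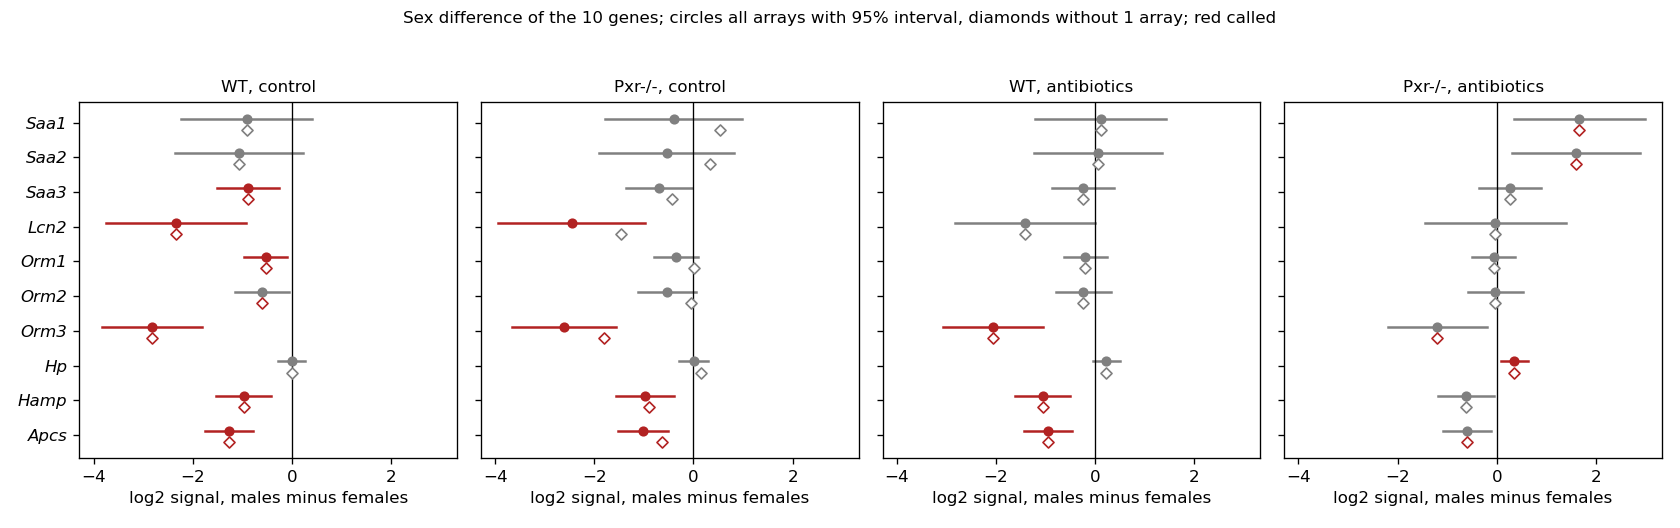
Difference in log2 signal, males minus females (horizontal axis), of the 10 genes in 4 pairs of groups. Circles with lines are the estimates from all 47 arrays with 95% intervals, open diamonds those without Pxr-/- CTRL female replicate 1, and red marks a call; Orm3 lies at -2.83 in WT CTRL, -2.61 in Pxr-/- CTRL, -2.07 in WT ATB and -1.20 in Pxr-/- ATB mice, where Saa1 lies at 1.67.

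Leaving out that 1 female also narrowed the spread shared by all comparisons. The liver was picked for its values of these genes, so calls gained without it do not stand as tests. The within-group SD fell from 1.18 to 0.86 for Saa1, from 1.26 to 0.92 for Lcn2, from 0.90 to 0.57 for Orm3 and from 0.49 to 0.25 for Orm2. In WT CTRL mice 7 genes were then called, Orm2 (-0.60, adjusted p = 0.000836) being the addition, beside 30.5% of all genes. In WT ATB mice Orm3, Hamp and Apcs were called as before, beside 9.47%. In Pxr-/- ATB mice Orm3 (adjusted p = 0.00395) and Apcs (adjusted p = 0.00276) were then called higher in females, beside 23.8%, and Saa1 (adjusted p = 0.00751), Saa2 (adjusted p = 0.0117) and Hp (adjusted p = 0.0184) higher in males, beside 2.58%. Each slide held 1 array of each group present. Within slides, Orm3, Hamp and Apcs were lower in the male on 6 of 6 slides in WT CTRL mice and on 5 of 5 in Pxr-/- CTRL mice. Saa3, Orm1, Orm2 and Lcn2 were also lower on 6 of 6 in WT CTRL mice, but on 3 or 4 of 5 in Pxr-/- CTRL mice. The share of all genes lower in the male on every slide was not computed.

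The second probes gave the same directions. The dimmer Orm3 probe (chr4:63018004-63018619), well above background on 1 of 6 arrays of WT CTRL males and on all 6 of WT CTRL females, differed by -1.48 ± 0.34 in WT CTRL mice (adjusted p = 0.00115). The second Lcn2 probe (chr2:32241037-32241281) differed by -2.10 ± 0.70 (adjusted p = 0.0183). Deviations of the 2 probes from their group means correlated at r = 0.98 for Lcn2 and 0.96 for Orm3 over 47 livers, a description over livers that share slides.

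Antibiotics changed none of the 10 genes past the threshold by limma in any of the 4 pairs of groups. In WT males 9 of 10 genes read higher after antibiotics, with the lowest p for Orm3 (0.80 ± 0.50, adjusted p = 0.394), beside 1.15% of all genes called. By limma 0 members had an unadjusted p under 0.05 there (2 without Pxr-/- CTRL female replicate 1), beside 18.8% of all genes (19.1%). In Pxr-/- males Lcn2 differed 3.38-fold (1.76 ± 0.74, adjusted p = 0.663), Orm3 2.67-fold (1.41 ± 0.52, adjusted p = 0.601) and Saa1 2.55-fold (1.35 ± 0.69, adjusted p = 0.747), beside 0.110% called. By limma 3 of the 10 had an unadjusted p under 0.05 there, and 6 without the same liver, beside 7.24% and 7.60% of all genes. For Orm2, Orm3 and Apcs 5 of the 6 ATB males lay above every CTRL male, and the share of all genes was not computed for that. In WT females the differences ran from -0.55 for Saa3 to 0.04 for Apcs, beside 0.0137% called, and 0 members had an unadjusted p under 0.05, beside 10.7%.

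In Pxr-/- females the sign of the antibiotic difference rested on 1 liver. Saa1 differed by -0.71 ± 0.65 (adjusted p = 0.714) with it and by 0.24 ± 0.49 (adjusted p = 0.904) without it, and Lcn2 by -0.68 and 0.35. The number of genes reading higher after antibiotics went from 1 to 7 of 10, none called, beside 0.146% of all genes with it and 0.0411% without it. By limma 1 member, Saa3, had an unadjusted p under 0.05 with all livers (-0.79 ± 0.31, adjusted p = 0.297) and 4 had one without that liver, beside 11.8% and 10.9% of all genes. Apcs, at 0.48 ± 0.16 without that liver, then did not overlap between the groups (adjusted p = 0.233), as 0.814% of all genes did not with ATB higher.

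The Pxr genotype likewise changed none of the 10 genes past the threshold by limma when all livers were kept. In CTRL males the differences, Pxr-/- minus WT, ran from -0.39 for Hamp to 0.91 for Saa1, beside 0.187% of all genes called, and 0 members had an unadjusted p under 0.05, beside 5.24%. In CTRL females Saa1 differed by 0.39 ± 0.65 (adjusted p = 0.748), again with 0 members at an unadjusted p under 0.05, beside 3.29% of all genes called and 21.6% under that p. Without replicate 1 of the Pxr-/- CTRL females all 10 genes read lower in the Pxr-/- females, Saa1 at -0.56 and Orm3 at -1.03 ± 0.33 (adjusted p = 0.0796). Apcs was then called (-0.64 ± 0.16, adjusted p = 0.0263), beside 1.93% of all genes called lower, and its groups did not overlap, beside 2.07%. That liver was picked for its high values of these genes, Apcs among them, so this call does not stand as a test. By limma 4 members then had an unadjusted p under 0.05, beside 18.8%.

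In ATB mice Saa1 was 3.11-fold higher in Pxr-/- than in WT males (1.64 ± 0.65, adjusted p = 0.148), Saa2 3.07-fold (1.62 ± 0.64, adjusted p = 0.147) and Lcn2 2.90-fold (1.54 ± 0.70, adjusted p = 0.187), with 0.951% of all genes called. None passed. By limma these 3 of the 10 had an unadjusted p under 0.05, beside 23.1% of all genes. For each of them 5 of 6 Pxr-/- males lay above every WT male, and the share of all genes was not computed for that. In ATB females Hamp had the lowest p (-0.68 ± 0.28, adjusted p = 0.891), the only member with an unadjusted p under 0.05, beside 5.27% of all genes and 0.210% called.

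The differences between effects were also below the threshold. The interaction of antibiotics and genotype gave 0.0183% of all genes called in males and 0% in females, that of antibiotics and sex in WT 0.0411%, and that of genotype and sex in CTRL 0.0229%, with no member among them. With all livers, by limma 0 members had an unadjusted p under 0.05 in these 4 comparisons, beside 5.11%, 9.54%, 13.0% and 4.53% of all genes in the same order. The largest value, antibiotics by sex in WT for Saa2, was 1.13 ± 0.91, with a 95% interval from -0.70 to 2.96. Without Pxr-/- CTRL female replicate 1 no member was called either, beside 0.0366% of all genes for genotype and sex and 0% for antibiotics and genotype in females, but signs and sizes moved. For genotype and sex in CTRL, 8 of 10 values were above 0 with that liver and 10 without it, and their median went from 0.19 to 0.59. There Saa1 was 1.45 ± 0.70 (adjusted p = 0.907), the largest without that liver, with a 95% interval from 0.05 to 2.86, and by limma 5 members had an unadjusted p under 0.05, beside 5.22% of all genes. For antibiotics and genotype in females, 3 of 10 values were above 0 with that liver and 9 without it, their median went from -0.16 to 0.47, and 2 members then had an unadjusted p under 0.05 by limma, beside 9.48%. The lowest adjusted p without it was 0.802 for genotype and sex and 0.432 for antibiotics and genotype in females.

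Pxr-/- CTRL female replicate 1 held the highest value of all 47 livers for 8 of the 10 genes. Against the mean of the other 5 livers of its group, Lcn2 (6.03), Saa1 (5.61), Saa2 (5.28) and Orm3 (4.81) had the 4 largest log2 differences of 21877 genes. Orm2 (2.92) ranked 15, Apcs (2.28) 28, Orm1 (2.11) 33, Saa3 (1.57) 82, Hp (0.91) 261 and Hamp (0.53) 777. In that liver 204 genes lay more than 1 log2 unit above the others and 241 below. Either count alone was exceeded elsewhere. Replicate 3 of the same group had 329 genes above but 17 below, and Pxr-/- CTRL male replicate 6 had 267 below but 44 above. No other liver had both counts this large.

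Other acute phase genes were high in the same liver. The share of all genes above or below every other liver of the group was not computed, so such counts only describe this liver. Of 23 tested genes of other positive acute phase proteins, 17 lay above every other liver of the group and 11 by more than 1 log2 unit over the mean. They included Lrg1 (2.71), a leucine-rich glycoprotein, Mt2 (2.34), a metallothionein, the serpin Serpina3n (2.18) and the fibrinogen-like Fgl1 (1.71). The 12 negative acute phase genes, whose products fall in inflammation, differed by a median of -0.06, with Serpina6 (-0.62), Apoa1 (-0.53) and Ttr (-0.51) among the 4 below every other liver. Of 28 genes of IL-6, IL-1 and TNF signalling, Socs3 (2.73), the feedback inhibitor of STAT3 signalling, Il1r1 (1.57) and Stat3 (1.11) differed by more than 1. The cytokine mRNAs Il1b and Tnf differed by -0.26 and -0.43, while Il6 was well above background on only 12 of 47 arrays, this one among them, and gives no usable difference. Cebpb was 0.43 higher, while Cebpd stood at -0.83 and Nfkbia at -0.69.

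Marker genes of other cells were mixed in that liver. Counts above or below every other liver have no share of all genes beside them and are not read as results about the lists. Of 8 neutrophil markers tested, 5 lay above every other liver of the group and 0 below, with a median difference of 0.38. These were S100a9 (1.79), S100a8 (1.69), Retnlg (0.79), Camp (0.57) and Ly6g (0.19), whereas Csf3r (0.15), Mmp8 (-0.08) and Elane (-0.23) lay among the others. Retnlg and Mmp8 were well above background on 26 and 28 of 47 arrays. Prtn3 (4.77), a granule protease of neutrophils that was not on the list, was also high. The 14 macrophage markers differed by -0.78 (Marco) to 0.31 (Clec4f), with a median of 0.06, and the 10 hepatocyte markers by a median of -0.09. Of 6 adipocyte markers 4 lay above and 1 below every other liver (median 0.46), and of 4 B cell markers 3 lay below (median -0.58). The chemokine Cxcl1 (3.01) was high, and the clock output gene Dbp (-3.44) and the clock gene Per3 (-2.27) were low. The array itself had 32750 probes well above background and a 75th percentile of 385.0, inside the ranges of the other arrays. The part of these cells in the values of this liver was not tested.

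**Figure D4:**
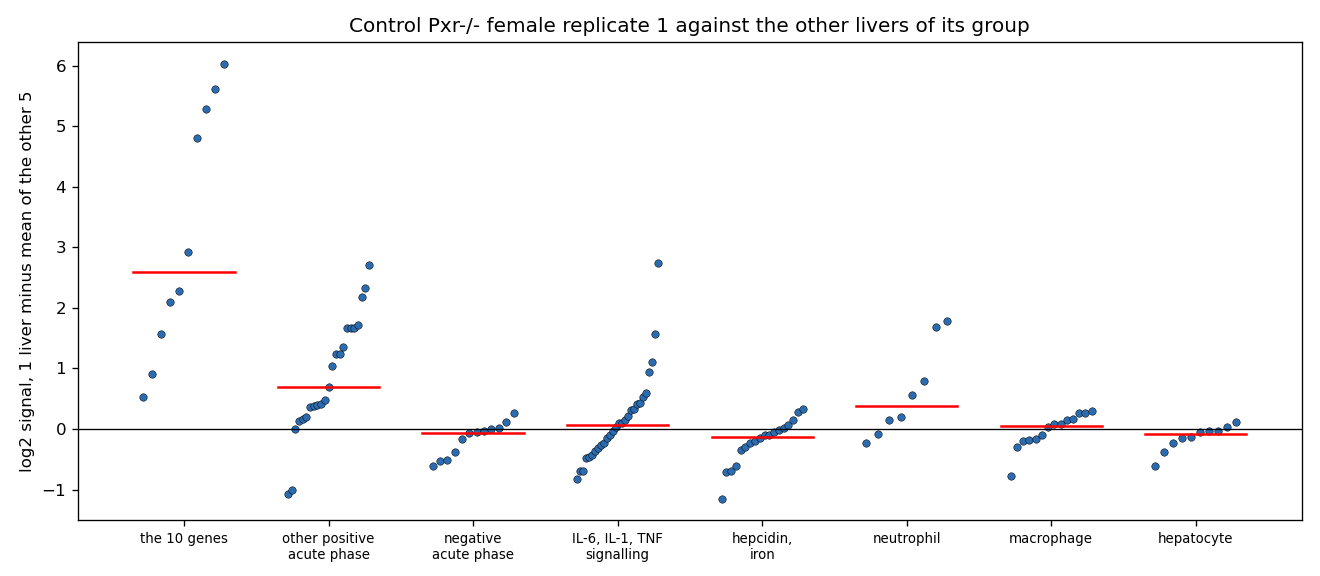
Difference in log2 signal between Pxr-/- CTRL female replicate 1 and the mean of the other 5 livers of its group (vertical axis), for the genes of 8 lists (1 point a gene, red bar the median). The 10 genes lie between 0.53 and 6.03 with a median of 2.60, other positive acute phase genes have a median of 0.69, and the negative acute phase, macrophage and hepatocyte lists centre near 0.

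Other livers were also high for some of the genes. Pxr-/- ATB male replicate 1 was above the mean of its group by 3.13 for Lcn2, 2.58 for Saa1, 2.45 for Saa2 and 1.60 for Orm3. It was above by 1.08 for Saa3, 1.05 for Apcs and 1.01 for Hamp, and by less for Orm2 (0.76), Orm1 (0.58) and Hp (0.19). Cd14 (2.44), Il1b (2.29) and Socs3 (1.92) were high in it too. That liver also had the highest median deviation of all 47 for the macrophage (1.35) and the B cell markers (1.61), with 0.14 for neutrophil markers, and 299 genes lay more than 1 log2 unit above its group. The part of these cells in its values was not tested. Pxr-/- CTRL male replicate 2 was above its group by 3.38 for Saa2, 3.25 for Saa1 and 2.37 for Lcn2 but by 0.70 for Orm3, with macrophage markers at -0.25. Pxr-/- ATB female replicate 4 was above by 2.30 for Lcn2 and 1.26 for Orm3 but by 0.79 for Saa1, with macrophage markers at 0.09. The serum amyloid A genes and Orm3 were thus not equally high in these livers. WT CTRL female replicate 3 was above its group by 1.73 for Saa3 and stood at -1.33 for Orm3 and -1.11 for Lcn2. Each value is against the mean of the other livers of the group.

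The genes moved together within groups to differing degrees. Over 47 livers, deviations from the group means correlated at r = 1.00 for Saa1 with Saa2, 0.98 for Orm1 with Orm2, 0.90 for Saa1 with Lcn2 and 0.87 for Orm2 with Apcs. Without Pxr-/- CTRL female replicate 1 these were 0.99, 0.94, 0.80 and 0.61 over 46 livers, and Saa1 with Apcs went from 0.72 to 0.39. Hamp stood at 0.00 to 0.33 with the other 9 genes, and at -0.07 to 0.41 without that liver. These values are descriptions, since livers share slides and all values rest on the same normalization.

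The genes outside the 10 most like each member were found by the same correlation over 47 livers. For Saa2 they were Serpina3n (r = 0.83), Il27 (0.82), a probe named only by a genome interval (0.81), Hpx (0.81) and Itih3 (0.81). For Lcn2 they included Lrg1 (0.91), Itih3 (0.88), Serpina3n (0.87) and Krtap11-1 (0.85). For Hp they included Lbp (0.84), which encodes lipopolysaccharide-binding protein, and Hpx (0.81), which encodes the haem-binding hemopexin. Olfr1218 (0.81), Serping1 (0.80) and the complement gene C9 (0.80) made up the rest for Hp. Cnksr1 (0.92) led for Orm2 and Prtn3 (0.92) for Apcs. For Hamp the highest named gene was Gucy2c (0.79), after 2 probes that carry only a genome interval as their name. Without the outlying liver the value was 0.83 for Lcn2 with Lrg1, 0.78 for Hp with Lbp and 0.80 for Apcs with Prtn3. It was 0.74 for Orm2 with Cnksr1, 0.69 for Saa2 with Serpina3n and 0.80 for Hamp with Gucy2c. Other genes then came first for some members, namely Hspb9 (0.78) for Saa2, C4b (0.80) for Orm2 and R3hcc1l (0.79) for Hp.

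Other genes of the acute phase also differed between the sexes. In WT CTRL mice 16 of 23 other positive acute phase genes were called higher in females and 1, Serpina3m, higher in males, beside 30% and 2.18% of all genes, with a median difference of -0.46 beside -0.20 over all genes. The largest were the metallothioneins Mt1 (-3.12 ± 0.57, adjusted p = 4.97e-05) and Mt2 (-3.03 ± 0.78, adjusted p = 0.00303), Fgl1 (-1.97 ± 0.27, adjusted p = 5.03e-07) and the IL-1 antagonist Il1rn (-1.29 ± 0.32, adjusted p = 0.00183). Pxr-/- CTRL mice had 12 higher in females, beside 13.8% of all genes, and 10 without Pxr-/- CTRL female replicate 1, beside 14.6%. Both ATB pairs had 8, beside 9.06% in WT and 23.4% in Pxr-/- mice, and each of these 3 pairs had 1 higher in males. Among 12 negative acute phase genes 3 were called higher in WT CTRL females, led by Serpina6 (-1.51 ± 0.18, adjusted p = 2.35e-08), which encodes the corticosteroid carrier transcortin. That is a share of 25%, below the 30% of all genes, and the median of the list was -0.07 beside -0.20. Neither list had a member called after antibiotics except Fetub in WT males (0.38 ± 0.09, adjusted p = 0.0200).

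Of 28 genes of cytokine signalling 10 were higher in WT CTRL females, a share near the 30% of all genes, and 1, Tnf (1.33 ± 0.18, adjusted p = 4.28e-07), higher in males. Tnf was also called higher in males in the other 3 pairs, by 1.57 in Pxr-/- CTRL, 2.08 in WT ATB and 1.72 in Pxr-/- ATB mice, and was called after antibiotics in WT males (0.69 ± 0.18, adjusted p = 0.0499). Stat3 was called higher in females in WT CTRL (-0.40 ± 0.16, adjusted p = 0.0469) and Pxr-/- CTRL mice (-0.53 ± 0.17, adjusted p = 0.0259), the latter not without Pxr-/- CTRL female replicate 1 (-0.34 ± 0.14, adjusted p = 0.0990). Il6 was well above background on 1 of 6 arrays of Pxr-/- CTRL females, 5 of 6 of WT CTRL females and 12 of 47 in all, so no difference is given for it. In CTRL females 3 of the 28 genes were called lower in Pxr-/- than in WT mice, beside 3.08% of all genes. Without Pxr-/- CTRL female replicate 1 it was also 3, beside 1.93%. Il1b, Socs3, Cebpb, Cebpd and Nfkbia were called in none of the comparisons. Among 18 genes of hepcidin and iron control, 6 were called higher in WT CTRL females, 4 in Pxr-/- CTRL (3 without that liver), 5 in WT ATB and 5 in Pxr-/- ATB females, beside 30%, 13.8% (14.6%), 9.06% and 23.4% of all genes. Hamp2, the second hepcidin gene of the mouse, was higher in females in all 4 pairs, with differences of -3.55 ± 0.39 in WT CTRL, -3.39 ± 0.41 in Pxr-/- CTRL, -3.49 ± 0.39 in WT ATB and -3.79 ± 0.39 in Pxr-/- ATB mice.

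Markers of other cell types moved with some of these comparisons. Of 14 macrophage markers 13 were called higher in WT CTRL females than in males, beside 30% of all genes, and the mean level of the list was 10.58 to 11.47 in those females and 9.71 to 10.14 in those males. In WT ATB mice 6 of the 14 were called higher in females, beside 9.06% of all genes. In Pxr-/- CTRL mice 5 were, beside 13.8%, and 3 without Pxr-/- CTRL female replicate 1, beside 14.6%. In the Pxr-/- ATB pair none of the 14 was called, with means of 9.51 to 10.38 in females and 8.93 to 11.08 in males. In CTRL females 8 of 14 were called lower in Pxr-/- than in WT mice, beside 3.08% of all genes, and 6 without Pxr-/- CTRL female replicate 1, beside 1.93%, the Pxr-/- females reading 9.76 to 10.36. Of 8 neutrophil markers tested, of 12 listed, 2 were called higher in WT CTRL females, beside 30% of all genes, and 4 without that liver, beside 30.5%, with list means of 7.90 to 8.71 in females and 7.58 to 7.98 in males. In CTRL females 2 of the 8 were called lower in Pxr-/- than in WT mice, beside 3.08% of all genes, and 2 without that liver, beside 1.93%. The markers Mpo, Ngp, Ltf and Cxcr2 were too dim to be tested. Adipocyte markers lay the other way. Their mean level was 6.34 to 6.63 in WT CTRL females and 6.89 to 7.91 in WT CTRL males, and the sexes did not overlap, while the median difference of the list was 0.09. Of 6 tested, of 7 listed (Adipoq was too dim), 2 were called higher in males in WT CTRL, 2 in Pxr-/- CTRL, 1 in WT ATB and 2 in Pxr-/- ATB mice, beside 2.18%, 2.45%, 3.44% and 2.53% of all genes. Cfd, which encodes adipsin, was called in all 4 pairs and was well above background on 1 of 6 arrays of WT CTRL females and 6 of 6 of WT CTRL males. Of 4 B cell markers tested, of 6 listed, 1, Cd79b, was called higher in WT CTRL females (-0.71 ± 0.26, adjusted p = 0.0338), with list means of 7.16 to 7.42 in WT CTRL females and 6.38 to 7.23 in WT CTRL males. The part of these markers in the differences of Saa3, Lcn2 and the other genes was not tested.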

How the data were processed

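Total RNA of 47 mouse livers was hybridised to Agilent single-colour arrays, 1 mouse per array, on 6 slides and in 3 wash batches. Scanner files were deposited with the median signal intensity of each spot, made by the authors with Feature Extraction 10.10.1.1. The deposited table of processed values, on a log2 scale, was used as an alternative only. Groups came from the sample titles, and p-values measure the spread between mice of a group. Members and gene lists were chosen with earlier results of these data known.

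Following the study's methods, spots flagged as non-uniform (422 values) were removed, dim probes were dropped unless 5 or more arrays of some group read well above background, and log2 values were corrected for wash batch and normalized by a reimplementation of CrossNorm (300 random stacks). This left 32979 of 56605 probes. Limma 3.58.1 in R 4.3.3 was fitted with group and wash batch over all 47 arrays, with Benjamini-Hochberg adjustment. A gene is represented by its brightest probe, and 1535 probes were renamed by accession through the RefSeq table. The number of arrays limits the precision. Tested on simulated data for the WT CTRL sex comparison over 32979 probes, the fit recovered 99% of 100 probes changed by 1 log2 unit. It recovered 100% of 100 changed by 2. Those probes were drawn at random and given normal noise at their own spread. The shares do not give the recovery for members as variable as Saa1 or Lcn2, with within-group SDs of 1.18 and 1.26. Genes named outside the 10 members were the called genes of each list with the largest changes (at most 4), a preset set of cytokine and hepcidin genes, and the 5 most correlated genes of 6 members. Other genes named for single livers, and marker genes, were chosen after their values were seen.

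The alternatives were quantile normalization, processed signals less the 75th percentile, normexp with an offset of 50, the deposited log2 table, other filters on dim probes, no wash batch, slide or replicate number as a block, only the groups compared, robust variance with a trend, the mean of all probes of a gene, and leaving out each array. Array weights, and leaving out 3 livers together, were added after seeing the data.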

Additional observations from a re-analysis of the deposited data

Results flagged for a closer look

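In 96 sets of 1 probe in 1 group, 15 values lay far from the others by Dixon's gap at the 95% level. If the sets were independent, chance would give about 4.8, that is 1 in 20. They are not, since members correlate across livers and Orm3 and Lcn2 have 2 probes each, so that figure is no test of the count. Of the 15 values, 9 came from Pxr-/- CTRL female replicate 1. Its log2 signal was 18.16 for Saa1, 18.29 for Saa2, 17.74 for Orm1, 17.07 for Orm2, 13.96 and 8.864 for the 2 Orm3 probes, 15.98 and 13.36 for the 2 Lcn2 probes and 13.36 for Apcs.

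The other 6 were spread over 6 livers and were mostly small. Saa3 read 8.388 in Pxr-/- ATB female replicate 1, against 9.30 to 9.72 in the rest of its group. Orm1 read 15.59 in WT ATB male replicate 3, against 15.77 to 15.86. The dimmer Orm3 probe read 6.943 in WT ATB female replicate 1, against 5.91 to 6.27, and 5.17 in WT CTRL female replicate 3, against 6.13 to 6.44. The second Lcn2 probe read 8.699 in WT CTRL female replicate 4, against 6.48 to 7.28, and 10.02 in Pxr-/- ATB male replicate 1, against 6.11 to 7.34.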

How the results depend on the processing

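The sex comparisons held 14 calls among the 10 genes and 4 pairs of groups, and 12 to 19 under the other settings that kept all arrays. Leaving out 1 array at a time gave 12 to 18 calls for sex, 0 to 1 for genotype (the 1 being Apcs without Pxr-/- CTRL female replicate 1), and 0 to 0 for antibiotics and for the differences between effects. Without Pxr-/- CTRL female replicate 1, Pxr-/- CTRL male replicate 2 and Pxr-/- ATB male replicate 1 together, chosen after seeing the data, there were 22 calls for sex and 4 for genotype. Orm2 in CTRL females, Pxr-/- minus WT, then went from 0.00 to -0.50 (limma, adjusted p = 0.0230). The cause was not tested. With only the groups compared, limma also called Saa1 (adjusted p = 0.01955), Saa2 (adjusted p = 0.0121) and Orm2 (adjusted p = 0.00540) higher in WT CTRL females. In WT CTRL mice Orm1 was called in 7 of 14 alternatives and in 14 of 47 fits without 1 array, and Saa3 in 10 and 44. Hp in Pxr-/- ATB mice was called in 11 of 14 and 38 of 47, and Lcn2 in Pxr-/- CTRL mice in 13 of 14 and 44 of 47. Hamp was called in 12 of 14 and 46 of 47 in Pxr-/- CTRL mice. In WT CTRL mice it was called in 13 of 14 and 47 of 47. Orm3 and Apcs in Pxr-/- CTRL mice were each called in 13 of 14 and 47 of 47. Same-numbered replicates did not deviate together, with 33 of 161 pairs correlating above 0.1, and the fit with the replicate number as a block gave 15 calls for sex. In Pxr-/- ATB mice some calls were gained. With slide as block, limma called Orm3 (adjusted p = 0.0489) and Apcs (adjusted p = 0.0483) higher in females. With replicate number as block it called Apcs (adjusted p = 0.0361). Apcs was also called with a stricter filter on dim probes, the mean of all probes, only the groups compared and array weights. The adjusted p of limma for Apcs ran from 0.01015 to 0.04978 under those settings. Saa1 was called higher in males there under quantile normalization (limma, adjusted p = 0.0497) and with only the groups compared (adjusted p = 0.029). Saa1 was also called with processed signals, the deposited log2 table, the stricter filter, the mean of all probes and array weights. The adjusted p of limma for Saa1 ran from 0.04171 to 0.04965 under those settings. Without the 3 livers together Saa1 (limma, adjusted p = 0.0059) and Apcs (adjusted p = 1.08e-05) were called as well. Orm3 and Saa2 also gained calls there under some of these settings. The second Orm3 probe was near background in males, which limits its fold changes.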
